A study of Mus musculus with 41 samples.

Results

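Collagens and their partner genes were followed in mouse liver and liver tumour by RNA-seq. The set holds 42 named genes out of 24511 in the table: chains of the scar collagens, basement membrane proteins, other matrix proteins, matrix enzymes with their inhibitors, and markers of the cells that make scar. All 42 had a value. Of these, 41 reached a mean log2 value of 3 over the libraries and were tested, and Lox, a collagen cross-linking enzyme, did not.

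Scar in the liver is built mainly by stellate cells, which store vitamin A as retinyl esters at rest and turn into collagen-secreting myofibroblasts when activated, and also by portal fibroblasts. Fibre collagens such as types I and III give scar its tensile strength. Basement membranes are sheet-like matrices of type IV collagen, laminins, nidogen and perlecan that underlie endothelium and epithelium and are sparse along normal liver sinusoids. Matrix metalloproteinases cut matrix, tissue inhibitors of metalloproteinases (TIMPs) block them, and lysyl oxidases cross-link collagen.

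All samples came from male C57BL/6 mice, and no age is given in the labels. Healthy livers marked NC, a term the labels leave unexplained, came from MupHe, IgAkMup, CD8kMup and B6 mice. Fatty livers called healthy (HFD control, on a high-fat diet) came from IgAkCLM and B6 mice. Steatohepatitis (NASH) livers came from MupHe and IgAkMup mice, and hepatocellular carcinoma (HCC) tumours from IgAkMup, CD8kMup and MupHe mice, all on the high-fat diet. The genotype names are kept as given, since the labels do not spell them out. Each group had 3 libraries, except 4 in IgAkMup HCC and 4 in MupHe HCC. Every NASH and HCC genotype name holds Mup and neither HFD control name does, so stage and genotype cannot be told apart in that comparison. The labels do not call replicates separate animals, so p-values measure only the spread between these samples, which may be technical.

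All values are regularized log2 (rlog) values, on which a difference of 1 is a doubling, less what the shrinkage of low values takes away. They are not divided by gene length, so levels are compared between groups and not between genes. Sequencing depth is unknown. The hepatocyte marker albumin stood between 18.24 and 20.14 in all 35 libraries. The summed level of 8 hepatocyte markers was 18.72 to 20.39 in HCC libraries and 19.69 to 20.05 in NASH libraries. On the second principal component of all genes, 3 low-score tumours (IgAkMup HCC 5 and 9 and MupHe HCC 3) lay at -35.6 to -28.4, while the other 8 lay at scores of -5.12 to 24.7. In whole tissue, fewer cells of a type and less RNA per cell cannot be told apart.

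**Figure D1:**
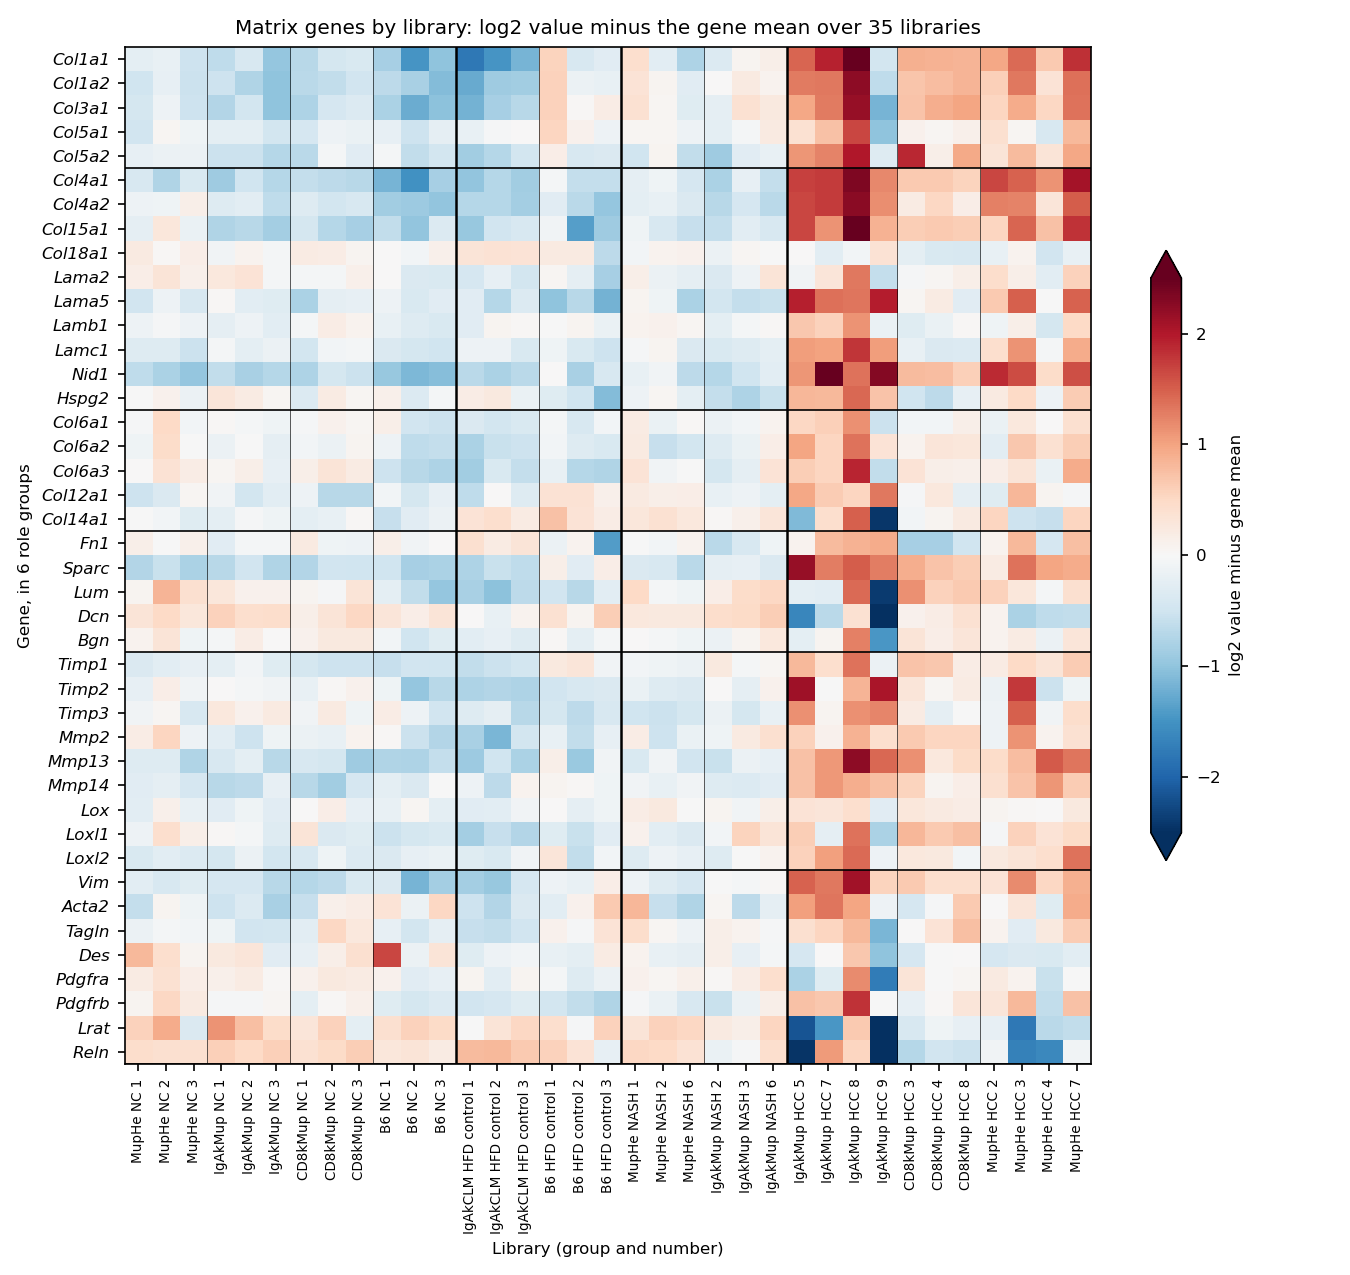
Log2 value of each of the 42 genes minus its mean over 35 libraries, one row per gene in 6 role groups and one column per library, from NC on the left through HFD control and NASH to HCC on the right. The colour scale ends at 2.5 either way. The rows of Col4a1, Col4a2 and Nid1 are red in all 11 tumours, while those of Dcn, Lrat and Reln are blue in several.

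Tumours carried more of most of the 41 tested transcripts of this set than NASH livers did. The comparison took the mean of IgAkMup and MupHe HCC (8 libraries) over the mean of IgAkMup and MupHe NASH (6 libraries), since no NASH library was used for CD8kMup. Of 41 members, 25 were higher in HCC, 3 were lower (Dcn, Lrat and Reln) and 13 did not pass an adjusted p of 0.05 in limma with Benjamini-Hochberg adjustment. Over all 12337 genes tested, 25.5% were higher and 22.9% were lower. The median difference of the members was 0.74, beside 0.01 over all genes. Leaving out single libraries gave 25 to 33 calls. Fitted on the compared groups alone, 20 members were higher and 1 was lower, beside 34.9% of all genes in either direction. Without the 3 low-score tumours, 29 were higher and 2 were lower. All-gene shares for the fits that left out libraries are not given here, so those counts cannot be set against them. Libraries with the HCC label share a column tag (SS H) that no other stage carries, so tag and stage cannot be told apart here.

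Fibre collagens rose in 4 of 5 cases, with a median difference of 0.90. Col1a1, which encodes the α1 chain of type I collagen, stood at 8.20, 8.66, 9.38 and 6.29 in IgAkMup HCC and at 7.71, 8.15, 7.40 and 8.57 in MupHe HCC. It stood at 6.41, 6.82 and 6.88 in IgAkMup NASH and at 7.16, 6.48 and 5.96 in MupHe NASH. All tumours but IgAkMup HCC 9 lay above every NASH library. The difference was 1.43 ± 0.29 (SE; limma adjusted p = 0.000225).

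The partner chain gene Col1a2 stood at 8.65, 8.68, 9.59 and 6.72 in IgAkMup HCC and 7.95, 8.68, 7.71 and 8.74 in MupHe HCC. NASH values were 7.37, 7.58 and 7.45 in IgAkMup and 7.70, 7.43 and 7.08 in MupHe livers. Again all tumours but IgAkMup HCC 9, which was below every NASH library, lay above them, and the difference was 0.90 ± 0.26 (adjusted p = 0.00467). With the compared groups fitted alone its adjusted p was 0.0586.

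Col3a1, for type III collagen, gave 9.66, 10.001, 10.86 and 7.53 in IgAkMup HCC and 9.23, 9.63, 9.21 and 10.05 in MupHe HCC. It gave 8.48, 9.08 and 8.93 in IgAkMup NASH and 9.08, 8.75 and 8.39 in MupHe NASH. IgAkMup HCC 9 was lower than any NASH library and the other 7 tumours were higher than all of them. Its difference of 0.74 ± 0.29 (adjusted p = 0.0337) did not hold as a call when any of 7 single libraries was left out. Those were IgAkMup HCC 5, 7 and 8, MupHe HCC 7, IgAkMup NASH 2, and MupHe NASH 2 and 6, with differences of 0.51 to 0.74 and adjusted p of 0.0521 to 0.0901. Without IgAkMup HCC 9 it was 1.07.

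Type V collagen, which starts the assembly of collagen fibrils, split. Col5a2 rose by 1.21 ± 0.25 (adjusted p = 0.000262). Col5a1 had the smallest difference of the fibre collagens, 0.35 ± 0.24 (adjusted p = 0.225), with 6.59, 6.94, 7.87 and 5.20 in IgAkMup HCC and 6.61, 6.26, 5.80 and 7.02 in MupHe HCC. NASH livers gave 5.96, 6.15 and 6.43 (IgAkMup) and 6.25, 6.25 and 6.08 (MupHe), inside the tumour range.

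Basement membrane genes had the largest median difference of the 6 role groups in HCC against NASH, 1.40. This did not hold in HCC against NC, where they had 0.95, beside 1.37 for fibre collagens. Of 10, 7 rose (Col4a1, Nid1, Col4a2, Col15a1, Lama5, Lamc1 and Hspg2) and Col18a1, Lama2 and Lamb1 did not pass. Col4a1, for the α1 chain of type IV collagen, stood at 10.95, 10.98, 11.57 and 10.43 in IgAkMup HCC, at 9.89, 9.88 and 9.79 in CD8kMup HCC and at 10.91, 10.72, 10.37 and 11.31 in MupHe HCC. NASH values were 8.45, 9.03 and 8.65 (IgAkMup) and 9.01, 9.12 and 8.82 (MupHe). No tumour came near the NASH range, IgAkMup HCC 9 included. The difference was 2.06 ± 0.15 (adjusted p = 1.87e-11), the largest among the members.

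Col4a2, the α2 chain, moved alongside. IgAkMup HCC libraries held 10.25, 10.33, 10.83 and 9.74, and MupHe HCC libraries 9.83, 9.81, 8.88 and 10.09. NASH livers held 7.88, 8.15 and 7.89 (IgAkMup) and 8.32, 8.39 and 8.22 (MupHe). The groups did not overlap, and the difference was 1.83 ± 0.15 (adjusted p = 1.45e-10).

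Col4a1 and Col4a2 are encoded head to head on opposite strands of chromosome 8 and share a promoter region, which is shown because the transcripts of both rose together. In the RefSeq annotation of GRCm38.p6, the assembly of mm10, the starts on which the promoter windows are built lie 21 bases apart, at 11312826 for Col4a1 and 11312805 for Col4a2. The Col4a1 gene as a whole is annotated up to 11312889, so the annotated genes overlap there. Each window holds 250 bases before and 50 bases from that start on, read 5′ to 3′ on the strand of its gene. Col4a1 covers chr8:11312777-11313076 on the minus strand and Col4a2 covers chr8:11312555-11312854 on the plus strand. Capitals mark the 78 bases that both windows hold, as reverse complements of each other.
Col4a1: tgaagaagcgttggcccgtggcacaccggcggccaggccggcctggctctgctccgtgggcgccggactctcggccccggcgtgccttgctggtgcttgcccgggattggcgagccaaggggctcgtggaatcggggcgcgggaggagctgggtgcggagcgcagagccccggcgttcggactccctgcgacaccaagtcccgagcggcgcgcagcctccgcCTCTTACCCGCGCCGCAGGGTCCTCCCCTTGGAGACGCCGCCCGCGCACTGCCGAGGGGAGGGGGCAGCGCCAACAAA
Col4a2: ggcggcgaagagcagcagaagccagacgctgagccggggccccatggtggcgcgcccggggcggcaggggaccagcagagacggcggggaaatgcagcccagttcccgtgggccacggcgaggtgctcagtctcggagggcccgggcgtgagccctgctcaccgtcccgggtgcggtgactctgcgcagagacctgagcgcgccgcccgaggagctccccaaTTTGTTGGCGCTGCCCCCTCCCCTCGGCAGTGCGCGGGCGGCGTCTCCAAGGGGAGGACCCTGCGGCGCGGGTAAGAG
The GC content was 74% in the Col4a1 window and 73.7% in the Col4a2 window, beside a median of 52.7% over 32851 promoter windows. Both hold a GC box (GGGCGG) and a CCAAT box (CCAAT) on either strand, and neither holds a TATA box (TATAAA). Promoter windows were at hand for 28 of the 42 genes, 30 windows in all. GC boxes were in 20 of these 30 and in 35.7% of all windows, CCAAT in 11 of 30 and in 37.4%, and TATAAA in 3 of 30 (Col3a1, Mmp13 and Vim) and in 13.6%. The 3 motifs cannot share a base except at their ends, and a match describes letters only. Libraries were made with a strand-marking kit, but strand-aware counting is not given in the sources used here, so reads from the stretch where both genes are annotated may not be told apart. The same holds for Timp1 and Timp3, which lie inside introns of the synapsin genes Syn1 and Syn3 on the opposite strand.

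Nid1 encodes nidogen-1, which ties laminin to type IV collagen. It stood at 9.46, 11.06, 9.70 and 10.64 in IgAkMup HCC and 10.21, 9.97, 8.82 and 9.96 in MupHe HCC, against 7.64, 7.86 and 8.08 in IgAkMup NASH and 8.16, 8.26 and 7.69 in MupHe NASH. All tumours were above all NASH livers, by 2.03 ± 0.20 on average (adjusted p = 4.25e-09). Col15a1, for a collagen at the outer face of basement membranes, rose by 1.77 ± 0.23, and Lama5, for the laminin α5 chain, by 1.69 ± 0.18. Lamc1, for the laminin γ1 chain, rose by 1.12 ± 0.14, and Hspg2, for the heparan sulphate proteoglycan perlecan, by 0.99 ± 0.13. Col18a1, the source of endostatin, had the smallest value of the 10, -0.09 ± 0.11 (adjusted p = 0.527). Its levels were 12.67, 12.38, 12.58 and 13.01 in IgAkMup HCC and 12.47, 12.75, 12.17 and 12.46 in MupHe HCC, beside 12.50, 12.70 and 12.64 in IgAkMup NASH and 12.59, 12.73 and 12.76 in MupHe NASH, which overlap.

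**Figure D2:**
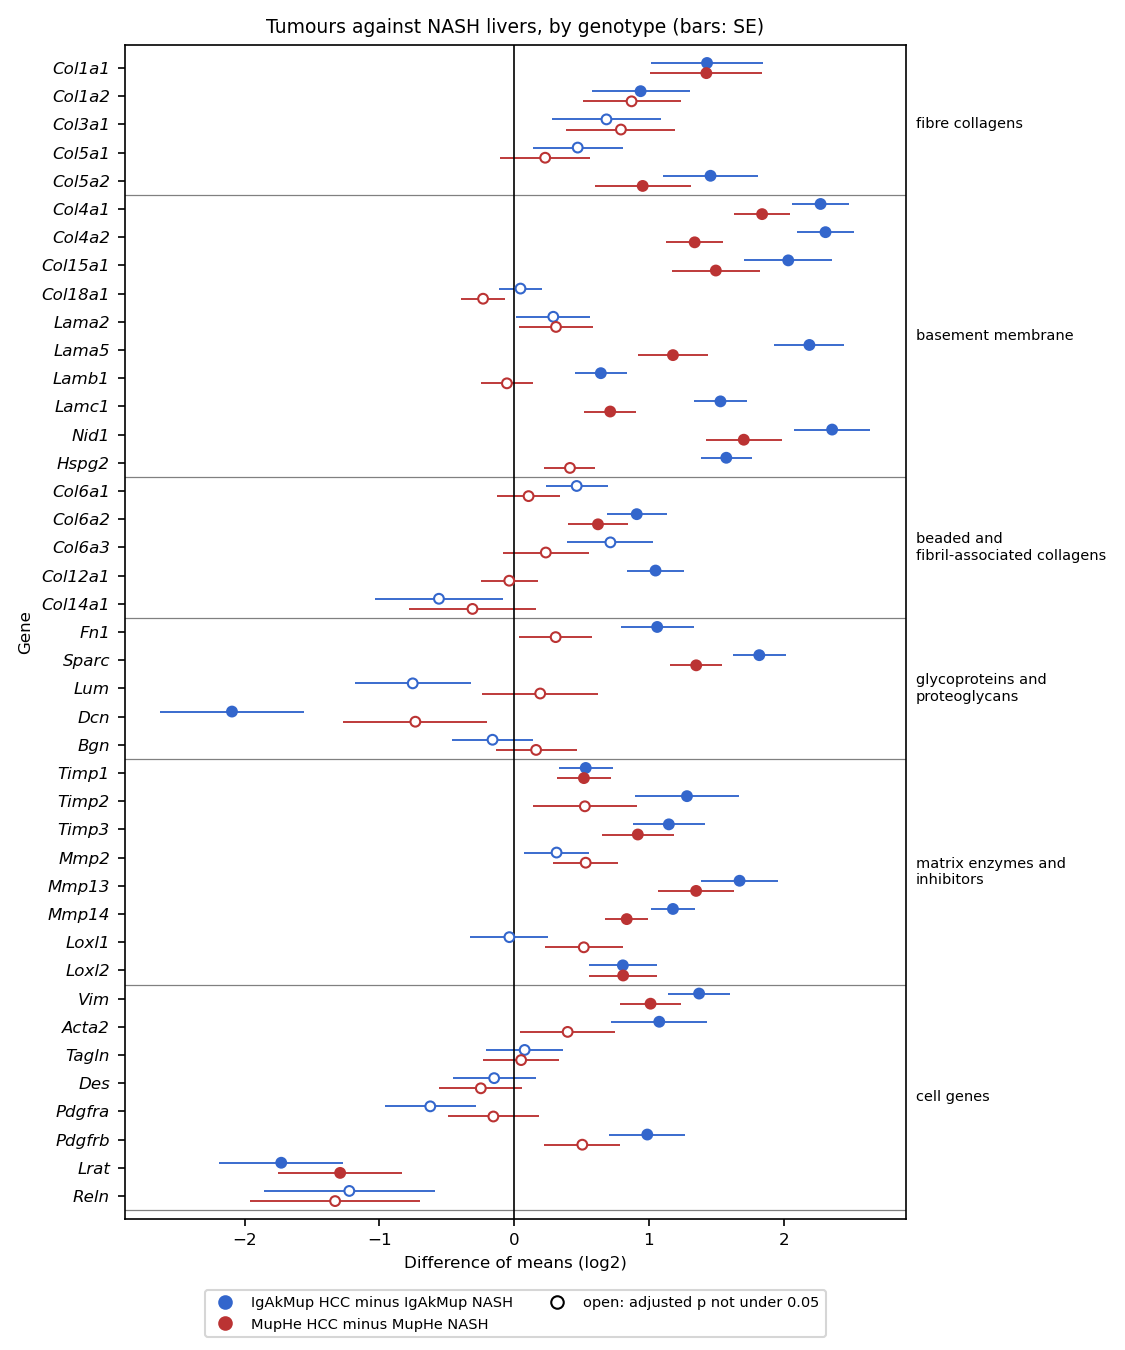
Difference of group means on the log2 scale for 41 genes, for IgAkMup HCC minus IgAkMup NASH (blue) and MupHe HCC minus MupHe NASH (red). Bars are SE, filled points passed an adjusted p of 0.05 and open points did not. Points of Col4a1, Nid1, Col15a1 and Lama5 lie above 1 in both genotypes, and Lrat lies below -1 in both.

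Col6a2, one of 3 chains of beaded-filament type VI collagen, had the largest difference among beaded and fibril-associated collagens. It stood at 6.76, 6.33, 7.13 and 6.13 in IgAkMup HCC and 5.51, 6.46, 6.17 and 6.39 in MupHe HCC. NASH livers gave 5.46, 5.62 and 5.95 (IgAkMup) and 6.01, 5.20 and 5.32 (MupHe), so that only MupHe HCC 2 lay within the NASH range. It rose by 0.77 ± 0.16 (adjusted p = 0.000207). Col12a1, for a collagen on the surface of fibrils, rose by 0.51 ± 0.15 (adjusted p = 0.00653), but gave 0.25 (adjusted p = 0.114) without the 3 low-score tumours. Col6a1, Col6a3 and Col14a1 did not pass, with -0.43 for Col14a1. That gene, also for a fibril-surface collagen, spread widely among tumours: 7.86, 9.38, 10.46 and 6.53 in IgAkMup HCC and 9.52, 8.46, 8.39 and 9.50 in MupHe HCC, against 8.99 to 9.35 in the 6 NASH livers.

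Glycoproteins and proteoglycans went both ways, with a median difference of 0.00. Sparc, for a collagen-binding glycoprotein, stood at 11.71, 10.81, 11.04 and 10.82 in IgAkMup HCC and at 9.75, 10.90, 10.52 and 10.47 in MupHe HCC. In NASH livers it stood at 9.31, 9.34 and 9.17 (IgAkMup) and 9.18, 9.13 and 8.87 (MupHe). The groups were separate and the difference was 1.59 ± 0.14 (adjusted p = 5.04e-10). Fn1, for fibronectin, which hepatocytes also secrete into plasma, rose by 0.68 ± 0.19 (adjusted p = 0.00402).

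Dcn, for the small leucine-rich proteoglycan decorin, went the other way. It stood at 8.83, 9.79, 10.84 and 6.05 in IgAkMup HCC and 10.54, 9.67, 9.83 and 9.85 in MupHe HCC, against 10.89, 10.94 and 11.08 in IgAkMup NASH and 10.73, 10.70 and 10.70 in MupHe NASH. IgAkMup HCC 8 alone reached the NASH range. Dcn fell by 1.41 ± 0.38 (adjusted p = 0.00281), and without IgAkMup HCC 9 by 0.94. Its adjusted p was 0.0565 with the compared groups fitted alone. The relatives Lum (-0.28) and Bgn (0.00) did not pass.

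Of 8 tested enzymes and inhibitors, 7 were higher in HCC and Loxl1 did not pass, and the median difference was 0.86. Mmp13, the main interstitial collagenase of the mouse, stood at 4.53, 4.88, 6.03 and 5.24 in IgAkMup HCC and 4.27, 4.58, 5.34 and 5.14 in MupHe HCC. NASH livers gave 3.24, 3.65 and 3.59 (IgAkMup) and 3.42, 3.71 and 3.32 (MupHe), all below every tumour. The difference was 1.51 ± 0.20 (adjusted p = 6.51e-07). Mmp14, a membrane-bound metalloproteinase that activates the Mmp2 proenzyme, rose by 1.01 ± 0.11 (adjusted p = 5.09e-08).

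Mmp2, the gelatinase, stood at 6.02, 5.53, 6.30 and 5.85 in IgAkMup HCC and 5.30, 6.55, 5.53 and 5.83 in MupHe HCC. It stood at 5.33, 5.65 and 5.84 in IgAkMup NASH and 5.62, 4.92 and 5.28 in MupHe NASH, overlapping the tumours. The difference of 0.42 ± 0.17 (adjusted p = 0.0407) lost its call when any of 8 single libraries was left out. These were IgAkMup HCC 5 and 8, MupHe HCC 3 and 7, IgAkMup NASH 2 and 3, and MupHe NASH 2 and 6, with differences of 0.30 to 0.43. It gave 0.30 (adjusted p = 0.144) after quantile normalization, 0.38 (0.0677) after median centring and 0.25 (0.352) with IgAkMup as the only NASH group.

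Inhibitor genes rose as well. Timp1 stood at 4.06, 3.65, 4.61 and 3.10 in IgAkMup HCC and 3.45, 3.74, 3.57 and 3.87 in MupHe HCC, against 3.49, 3.20 and 3.29 in IgAkMup NASH and 3.18, 3.15 and 3.10 in MupHe NASH. IgAkMup HCC 9 was at the low end of the NASH range and MupHe HCC 2 also lay within it. The difference was 0.52 ± 0.14 (adjusted p = 0.00304), and 0.43 (0.0504) with IgAkMup as the only NASH group. Timp3 rose by 1.03 ± 0.19. Timp2 rose by 0.90 ± 0.27, but gave 0.23 (adjusted p = 0.159) without the 3 low-score tumours, which held its 3 highest values, 9.89, 9.81 and 9.53.

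Lysyl oxidase genes differed among themselves. Loxl2 rose by 0.81 ± 0.18 (adjusted p = 0.000523). Loxl1 had the smallest difference of the enzymes, 0.24 ± 0.20 (adjusted p = 0.344), with 5.28, 4.43, 6.02 and 3.87 in IgAkMup HCC and 4.64, 5.24, 5.01 and 5.15 in MupHe HCC. Its NASH values, 4.60, 5.22 and 4.99 (IgAkMup) and 4.78, 4.40 and 4.31 (MupHe), lay inside that range. Lox was low in every stage, with a mean of 2.65 over the 35 libraries, below the filter of 3. Its lowest, median and highest values were 2.36, 2.47 and 2.82 in NC, 2.38, 2.48 and 2.67 in HFD control, 2.56, 2.75 and 2.90 in NASH, and 2.36, 2.88 and 3.07 in HCC livers. It was not tested.

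Genes of the scar-forming cells separated into those that rose and those that fell, with a median difference of -0.07 over 8. Vim, for the intermediate filament vimentin, stood at 9.89, 9.74, 10.53 and 8.98 in IgAkMup HCC and 8.77, 9.60, 8.93 and 9.30 in MupHe HCC. NASH livers gave 8.42, 8.36 and 8.46 (IgAkMup) and 8.30, 8.10 and 8.01 (MupHe), all lower, and Vim rose by 1.19 ± 0.16 (adjusted p = 8.99e-07). Pdgfrb, for a growth factor receptor of stellate cells and pericytes, rose by 0.75 ± 0.20 (adjusted p = 0.00281).

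Acta2, for the smooth muscle actin that marks myofibroblasts, overlapped between stages. Its values were 6.55, 6.86, 6.51 and 5.39 in IgAkMup HCC and 5.55, 5.82, 5.22 and 6.45 in MupHe HCC, against 5.57, 4.87 and 5.31 in IgAkMup NASH and 6.37, 4.95 and 4.77 in MupHe NASH. The difference was 0.74 ± 0.25 (adjusted p = 0.0165). It was 0.59 to 0.64, with adjusted p of 0.0527 to 0.0692, when IgAkMup NASH 3, MupHe NASH 2 or MupHe NASH 6 was left out, and had an adjusted p of 0.0688 with the compared groups fitted alone.

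Lrat makes the retinyl esters that resting stellate cells store. It stood at 4.83, 5.53, 7.65 and 4.25 in IgAkMup HCC and 6.79, 5.20, 6.32 and 6.38 in MupHe HCC, against 7.22, 7.15 and 7.52 in IgAkMup NASH and 7.31, 7.57 and 7.52 in MupHe NASH. Every tumour but IgAkMup HCC 8 was below every NASH liver. Lrat fell by 1.51 ± 0.33 (adjusted p = 0.000371). Reln, for the secreted glycoprotein reelin that stellate cells make, fell by 1.28 ± 0.45 (adjusted p = 0.0196). That rested on few tumours: the difference was -0.85 without IgAkMup HCC 9, -1.06 (adjusted p = 0.0505) without IgAkMup HCC 5 and -0.17 (0.475) without the 3 low-score tumours. Tagln, Des and Pdgfra did not pass.

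**Figure D3:**
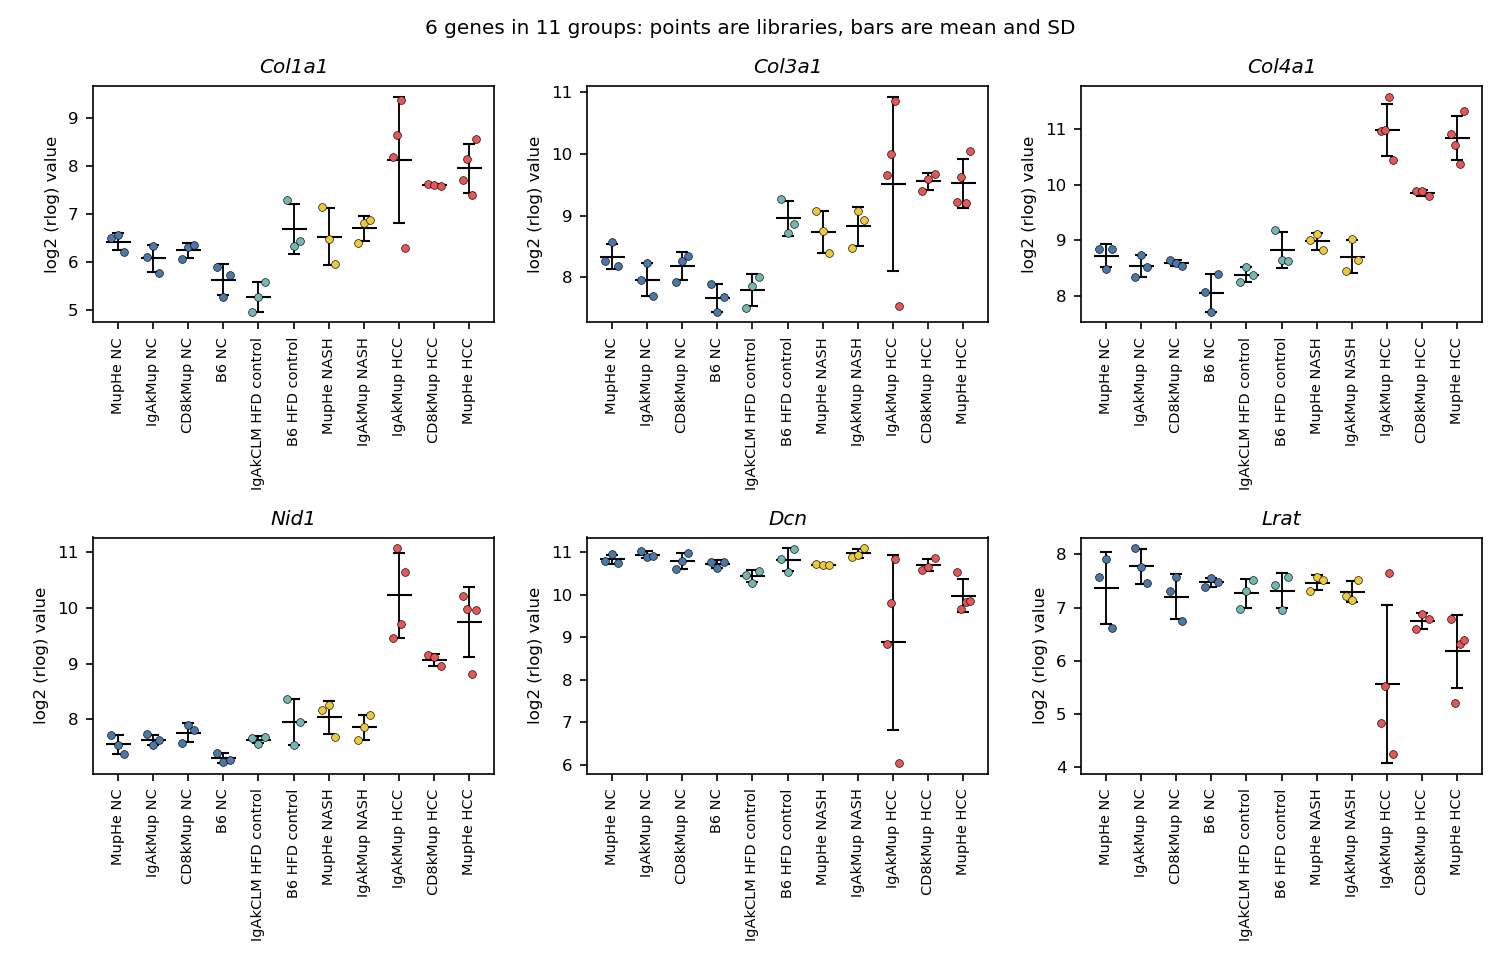
Log2 (rlog) values of 6 genes in 11 groups, with stages running from NC on the left to HCC on the right; points are libraries and bars are mean and SD. Col4a1 and Nid1 in all 11 tumours lie above every other library, Col1a1 and Col3a1 drop in IgAkMup HCC 9, and Dcn and Lrat fall to 6.05 and 4.25 there.

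Cell type marker lists went in different directions in HCC against NASH, and their part in the member differences was not tested. Of 10 stellate cell markers, 4 of which are members, 1 was higher (Pdgfrb) and 6 were lower in HCC than in NASH, and their summed level was 9.96 to 11.37 in the 11 HCC libraries and 10.93 to 11.15 in the 6 NASH libraries. Among 8 portal fibroblast and mesothelial markers, 3 were abundant enough to test (Thy1, Entpd2 and Cd34) and all 3 rose. The list of 8 summed to 8.05 to 9.55 in HCC and 6.79 to 7.08 in NASH, with no marker at or below 0. Within it, Entpd2 ran from 7.06 to 8.86 and Cd34 from 5.80 to 8.25 in HCC. The untested markers were low and overlapped between stages. Highest values in HCC and NASH were 2.68 and 2.99 for Msln, 2.43 and 2.90 for Upk3b, and 1.56 and 1.29 for Pi16. They were 0.42 and 0.55 for Upk1b, and 0.13 and 0.21 for Gli1. Endothelial markers split, with 4 higher and 4 lower of 11, and summed to 11.06 to 11.92 in HCC and 11.36 to 11.66 in NASH. Smooth muscle markers summed to 6.63 to 7.47 in HCC and 6.36 to 7.28 in NASH, where 2 of 7 were tested, 1 rose, and Myocd was below 0 in every library. Of 6 tested cholangiocyte markers 3 rose (Sox9, Spp1 and Tspan8), while Krt7 (-0.13), Krt19 (-0.52) and Epcam (-0.25) did not pass. That list of 7 summed to 10.09 to 15.28 in HCC and 10.05 to 10.96 in NASH. Within it, Spp1 alone ran from 8.83 to 15.24 in HCC and from 9.79 to 10.76 in NASH. Among 8 macrophage markers, 2 rose and 3 fell, with sums of 10.26 to 11.56 in HCC and 11.03 to 11.60 in NASH. Of 8 hepatocyte markers 5 fell and none rose.

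The rise was seen in both genotypes. Between IgAkMup HCC and IgAkMup NASH, which share the first part of their column tags, 24 members were higher and 2 lower (43.8% of all genes in either direction). Between MupHe HCC and MupHe NASH, 16 were higher and 1 lower (30.7% of all genes in either direction). All 16 that rose in MupHe also rose in IgAkMup, Lrat fell in both, and no member went opposite ways. The differences themselves differed for 3 of 41 members, all larger in IgAkMup (4.82% of all genes). Col4a2 was 2.31 above NASH in IgAkMup tumours and 1.34 above in MupHe tumours, a gap of 0.97 ± 0.30 (adjusted p = 0.035). Hspg2 was 1.57 above in IgAkMup and 0.41 above in MupHe, a gap of 1.16 ± 0.27 (adjusted p = 0.00738). Col12a1 was 1.05 above in IgAkMup and -0.04 in MupHe, a gap of 1.09 ± 0.30 (adjusted p = 0.0213). None of the 3 gaps passed with the compared groups fitted alone (adjusted p of 0.108 to 0.247). That of Col4a2 was also lost without any of IgAkMup HCC 8, IgAkMup NASH 2 or 6, MupHe HCC 4, or MupHe NASH 1, 2 or 6 (0.71 to 1.02), and that of Col12a1 without IgAkMup NASH 2 (1.08).

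Among the 41 tested members, 7 had all 11 tumour libraries above all 24 others: Col4a1, Col4a2, Col15a1, Nid1, Sparc, Mmp13 and Vim. Over all tested genes, 2.62% showed such a separation upward and 1.62% downward, and no member did so downward. Col4a1 ran lowest, median and highest at 7.73, 8.53 and 8.85 in NC, 8.25, 8.58 and 9.19 in HFD control, 8.45, 8.92 and 9.12 in NASH, and 9.79, 10.72 and 11.57 in HCC. No fibre collagen was among the 7. Col1a1 ran at 5.27, 6.16 and 6.56 in NC, 4.96, 5.96 and 7.30 in HFD control, 5.96, 6.65 and 7.16 in NASH, and 6.29, 7.71 and 9.38 in HCC.

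Tumours differed among themselves. IgAkMup HCC 8 was the highest tumour for 28 of 41 members and the lowest for none. IgAkMup HCC 9 was the lowest for 20 and the highest for 4. In that tumour the fibre collagen, proteoglycan and stellate genes were low, with Dcn at 6.05, Lum at 4.56, Pdgfra at 4.34, Lrat at 4.25 and Reln at 4.93, each the lowest of all libraries. Yet Col4a1 at 10.43 was above every library outside HCC, and Lama5 (7.82), Col18a1 (13.01), Col12a1 (6.23) and Fn1 (14.33) were the highest among tumours. The summed stellate cell markers were also highest in IgAkMup HCC 8 (11.37) and lowest in IgAkMup HCC 9 (9.96). The part of stellate cells in these values was not tested. The CD8kMup tumours lay close together for Col1a1 (7.64, 7.62 and 7.59) and Col3a1 (9.41, 9.60 and 9.67). They spread more for Col5a2, at 7.67, 5.92 and 6.72, and for Acta2, at 5.10, 5.50 and 6.17.

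Col4a1 minus Col1a1 in the same library was used to set basement membrane against fibre collagen. Its absolute size has no meaning, since values are not per length. It averaged 2.86 ± 0.61 in HCC (SD, n = 8; 2.19 to 4.14) and 2.23 ± 0.44 in NASH (SD, n = 6; 1.77 to 2.86). The gap was 0.63 (exact two-sided permutation test over 3003 splits, p = 0.047), and the ranges overlapped. CD8kMup tumours, which have no NASH group and were not in the test, gave 2.25, 2.27 and 2.21, near the NASH mean. IgAkCLM HFD controls gave 3.29, 3.24 and 2.80, inside the HCC range. It did not hold up when single libraries were left out: in 9 of 14 such cases p rose above 0.05, to as much as 0.111. Leaving out IgAkMup HCC 9, which had the highest value, gave 0.44 (exact p = 0.0711).

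**Figure D4:**
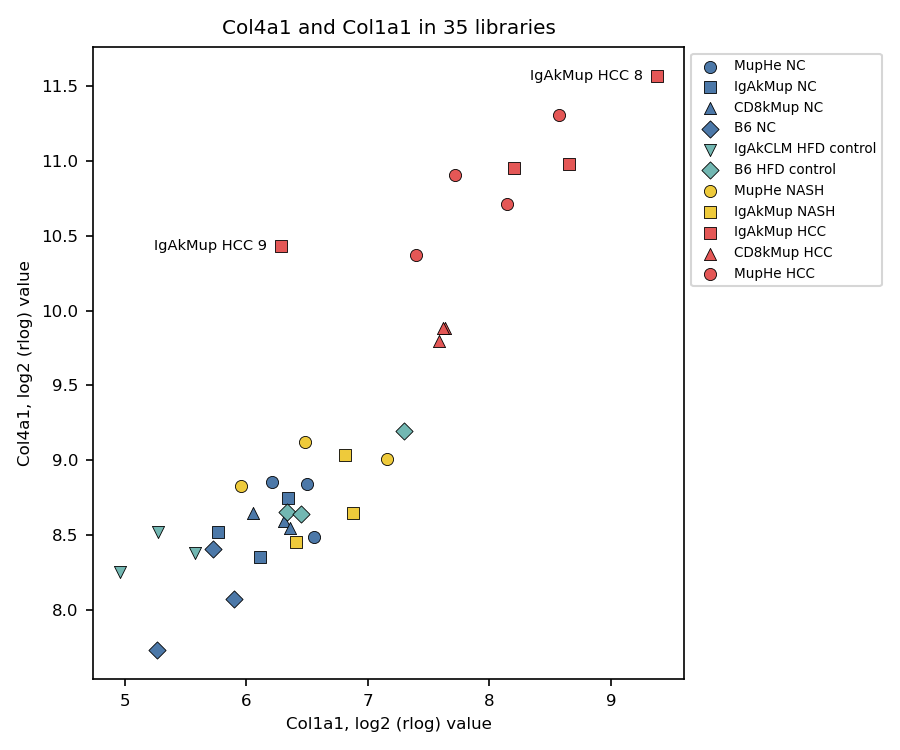
Log2 (rlog) value of Col4a1 against that of Col1a1 in 35 libraries, with colour for stage and shape for genotype. All 11 tumours lie at 9.79 or above for Col4a1, while IgAkMup HCC 9 falls at 6.29 for Col1a1, among the other stages.

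Set against NC livers of the same 3 genotypes, HCC tumours (11 libraries over 9) had 24 members higher and 5 lower, beside 31.7% and 30.6% of all genes. All 5 fibre collagens passed, from 0.50 for Col5a1 to 1.66 for Col1a1, as did all 8 enzymes and inhibitors tested, from 0.42 for Timp3 to 1.502 for Mmp13. Against NC the median difference was 1.37 for fibre collagens and 0.95 for basement membrane genes. In the same order, the medians were 1.60 and 1.60 in IgAkMup, 1.36 and 0.22 in CD8kMup, and 1.19 and 1.05 in MupHe. Of 10 basement membrane genes, 6 were higher, led by Nid1 (2.03) and Col4a1 (1.93), and Col18a1 was lower (-0.27, adjusted p = 0.0162). That direction turned to 0.09 after quantile normalization. Col18a1 averaged 12.66 in IgAkMup HCC and 12.64 in IgAkMup NC. Dcn (-1.01), Des (-0.44), Lrat (-1.29) and Reln (-1.36) were also lower over the 3 genotypes. None of these passed in CD8kMup alone, where Dcn averaged 10.69 in HCC and 10.79 in NC. Dcn averaged 8.88 in HCC and 10.94 in NC in IgAkMup. In MupHe it averaged 9.97 and 10.83 and did not pass. Column tag and processing notes differ between the NC libraries and the rest and cannot be told apart from stage, and the labels do not state the NC diet. Single libraries decided some of the smaller calls. Col5a1 was lost without MupHe HCC 7, IgAkMup HCC 8, MupHe NC 1, CD8kMup NC 1 or IgAkMup NC 3 (0.36 to 0.47). Timp2 was lost without IgAkMup HCC 5 or 9 (0.49 and 0.50), and Timp3 without CD8kMup HCC 3 or MupHe NC 3 (0.38 and 0.37). Des was lost without any of 9 libraries, namely CD8kMup HCC 3, IgAkMup HCC 5 and 9, MupHe NC 1 and 2, CD8kMup NC 2 and 3, and IgAkMup NC 1 and 2 (-0.44 to -0.35). By genotype, 26 members were higher and 3 lower in IgAkMup (all genes: 22.9% and 22.1%), 14 and 1 in CD8kMup (16.8% and 17.0%), and 15 and 2 in MupHe (20.6% and 19.5%).

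Tumour genotypes were also compared with each other. Between IgAkMup HCC and MupHe HCC, 6 members were higher and none was lower in limma, beside 4.12% and 6.01% of all genes. These were Col4a2 (0.63 ± 0.19), Lama5 (0.75 ± 0.24), Lamc1 (0.61 ± 0.18), Hspg2 (0.63 ± 0.18), Col12a1 (0.73 ± 0.20) and Sparc (0.68 ± 0.18), with adjusted p of 0.0163 to 0.044. All 10 basement membrane differences were positive. Between CD8kMup HCC and MupHe HCC, 3 members were lower and none higher (0.616% and 0.705% of all genes). Col4a1 had a difference of -0.97 ± 0.21, Lamc1 had -0.90 ± 0.19 and Hspg2 -0.77 ± 0.19, with adjusted p of 0.0206 to 0.0411. All 10 basement membrane differences were negative there, with a median of -0.72, while the 5 fibre collagens had a median of -0.12.

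Both results were unsteady. With the compared tumour groups fitted alone no member passed in either comparison. For IgAkMup against MupHe tumours the count was 1 without MupHe HCC 2 or MupHe HCC 4, 2 without IgAkMup HCC 5 and 10, all higher, without MupHe HCC 3. Without IgAkMup HCC 8 the count was also 10, of which 4 were higher and 6 lower. Col4a2 gave 0.38, Lamc1 0.39 and Lama5 0.45 without MupHe HCC 4. For CD8kMup against MupHe tumours it was 0 without MupHe HCC 7, CD8kMup HCC 4 or CD8kMup HCC 8, 5 without MupHe HCC 2 and 7 without MupHe HCC 4. It was 5 after quantile normalization. All-gene shares for these refits are not given here. At an unadjusted p of 0.05, 10 members were higher and 1 lower in the first comparison, beside 26.2% of all genes in either direction, and 8 were lower in the second, beside 16.2%. Cholangiocyte markers ran the same way as the members in the first comparison: all 6 tested were positive, with a median difference of 0.77, and 1 passed. Their list of 7 summed to 12.51 to 15.28 in IgAkMup HCC and 10.09 to 12.58 in MupHe HCC, and its part in the member differences was not tested.

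NASH livers did not differ from HFD controls for any of 41 members in limma over all groups, where 1.32% of all genes passed. At an unadjusted p of 0.05, 4 members were higher (Col6a3, Lum, Mmp2 and Loxl1) and none lower, beside 12.2% of all genes. The median difference was 0.20 for the members and 0.00 for all genes, and 32 of 41 were positive. Fitted on the 4 groups alone, 6 members passed, all higher, beside 6.99% of all genes. These were Lum (0.91 ± 0.12), Loxl1 (0.60 ± 0.12), Mmp2 (0.57 ± 0.15), Col6a3 (0.57 ± 0.15), Col1a2 (0.54 ± 0.14) and Timp2 (0.43 ± 0.07). None is a basement membrane gene. Set against NC livers of the same genotypes in limma over all groups, the NASH differences of these genes were -0.05 for Lum, 0.04 for Loxl1, 0.05 for Mmp2, -0.10 for Col6a3, 0.66 for Col1a2 and -0.12 for Timp2. Between MupHe NC and B6 NC livers the differences were 1.05 for Lum, 0.59 for Loxl1, 0.62 for Mmp2, 0.84 for Col6a3, 0.44 for Col1a2 and 0.55 for Timp2. None of these 12 values passed in that fit. Cholangiocyte markers were also positive in NASH against HFD control in 6 of 6 tested, with a median of 0.78, though none passed. Against NC livers of the same genotypes, their NASH differences had a median of -0.11, with 2 of 6 positive. Their list summed to 10.05 to 10.96 in NASH and 9.09 to 10.07 in HFD controls, and its part in the member differences was not tested. It summed to 10.05 to 10.41 in MupHe NC and 10.11 to 10.26 in IgAkMup NC, beside 9.16 to 9.49 in B6 NC.

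Fibre collagen values differed with the control used. Column tags split these libraries into a Tri N set (MupHe NASH and IgAkCLM HFD control) and an SS N set (IgAkMup NASH and B6 HFD control). Within Tri N the fibre collagens had a median difference of 0.94. Col1a1 stood at 7.16, 6.48 and 5.96 in MupHe NASH and at 4.96, 5.28 and 5.58 in IgAkCLM HFD controls, which did not overlap (1.26 ± 0.44, adjusted p = 0.244). Within SS N the median was -0.13. Col1a1 stood at 6.41, 6.82 and 6.88 in IgAkMup NASH and at 7.30, 6.33 and 6.45 in B6 HFD controls, which overlapped (0.01 ± 0.44).

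No member passed within either set or for the difference between the sets in limma over all groups. All-gene shares were 0.559% for Tri N, 0.251% for SS N and 0.0567% for the difference. At an unadjusted p of 0.05 the member counts were 9 for Tri N, 2 for SS N and 2 for the difference, beside 10.2%, 7.55% and 4.57% of all genes. Fitted on the compared groups alone, 10 members passed within Tri N (6.04% of all genes). These were Col1a1, Col1a2, Col3a1, Col4a1, Col4a2, Col6a3, Lum, Timp1, Timp2 and Tagln, all higher. Within SS N the same fit called Lum alone (0.87 ± 0.15, adjusted p = 0.0261; 1.33% of all genes). Lum, for a keratan sulphate proteoglycan that shapes collagen fibrils, stood at 7.44, 6.90 and 6.85 in MupHe NASH and 6.14, 5.93 and 6.30 in IgAkCLM HFD controls. It stood at 7.12, 7.42 and 7.48 in IgAkMup NASH and 6.48, 6.25 and 6.68 in B6 HFD controls, so all NASH livers were above all HFD controls. NC livers of the Mup genotypes were as high, with means of 7.39 ± 0.39 in MupHe NC and 7.12 ± 0.11 in IgAkMup NC, beside 6.34 ± 0.36 in B6 NC (SD, n = 3 each). NASH differed from NC of the same genotypes by -0.05 ± 0.33 for Lum (adjusted p = 0.941).

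**Figure D5:**
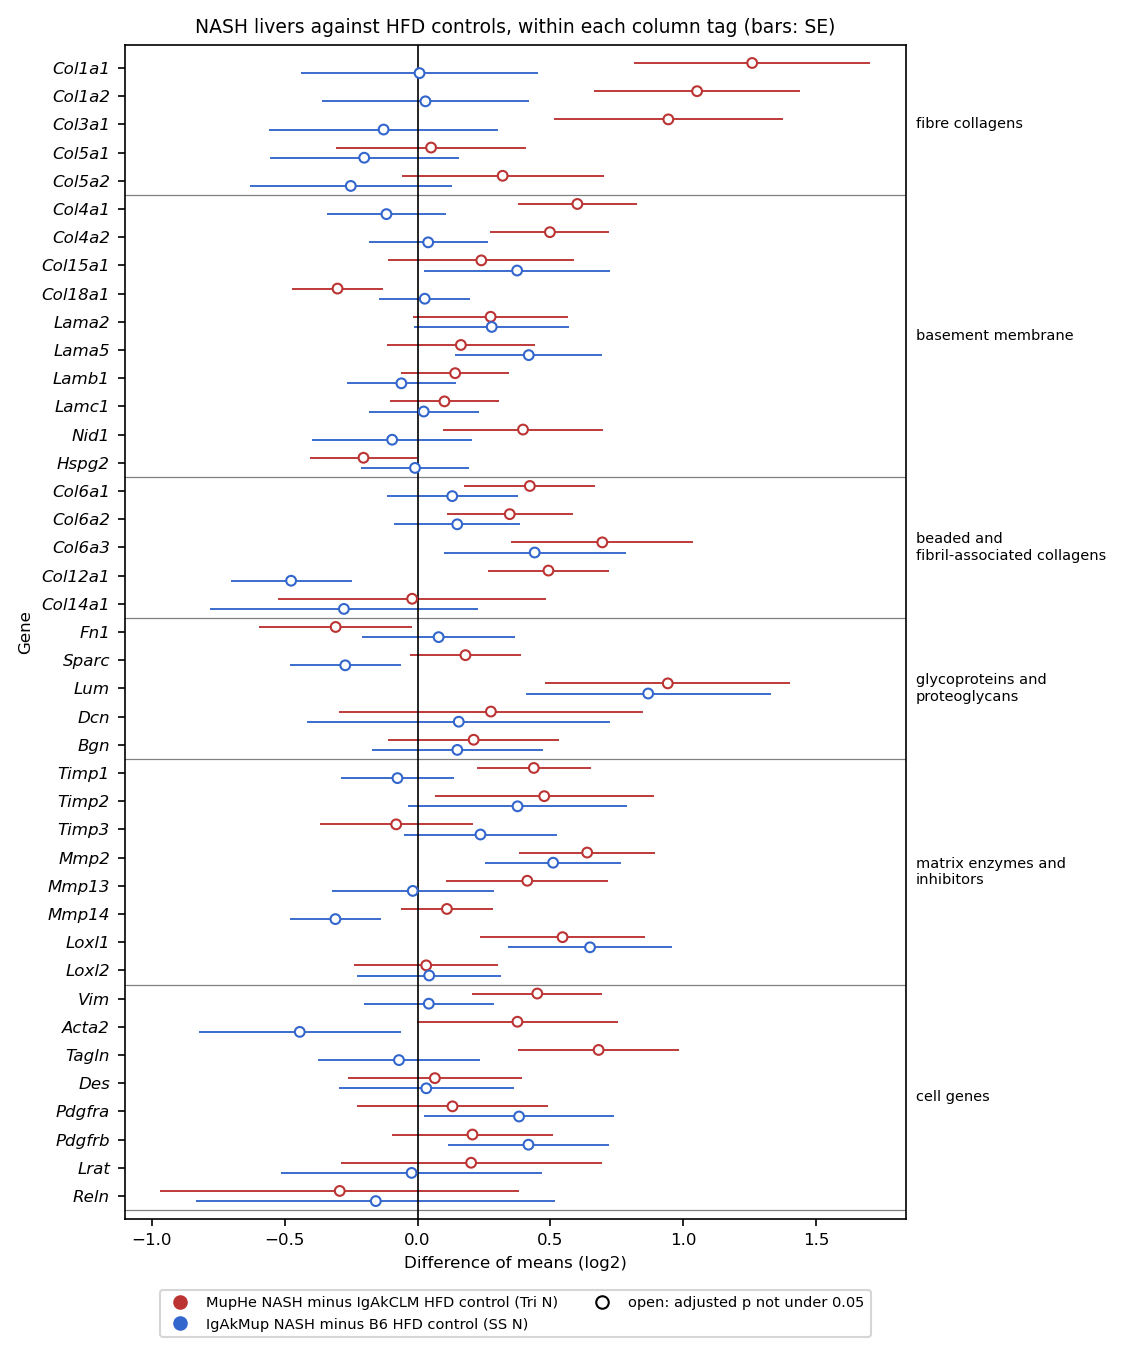
Difference of group means on the log2 scale for 41 genes, for MupHe NASH minus IgAkCLM HFD control (red, Tri N columns) and IgAkMup NASH minus B6 HFD control (blue, SS N columns). Bars are SE, and all points are open because none passed an adjusted p of 0.05. Red points of Col1a1, Col1a2 and Col3a1 lie near 1 while the blue ones lie near 0, and Lum is near 0.9 in both.

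Against NC livers of the same genotypes, NASH livers had 1 member changed, the perlecan gene Hspg2, which was lower (-0.46 ± 0.14, adjusted p = 0.0288), beside 8.46% of all genes lower and 7.55% higher. Hspg2 averaged 7.42 in IgAkMup NASH and 7.43 in B6 HFD controls, which share the SS N tag. Means were 7.95 in MupHe NASH and 8.15 in IgAkCLM HFD controls (both Tri N), 8.04 in MupHe NC and 8.24 in IgAkMup NC. The part of the tag was not tested. The NASH against NC difference was -0.10 in MupHe alone, and its call was lost without any of 7 single libraries (-0.46 to -0.42), which were MupHe NASH 1 and 6, MupHe NC 1 and 2, IgAkMup NASH 3, and IgAkMup NC 1 and 2. Fitted on these groups alone, 8 members were higher and 4 lower, beside 36.1% of all genes. Higher were Col1a2 (0.66 ± 0.11), Col3a1 (0.63 ± 0.13), Nid1, Col14a1, Sparc, Timp1, Vim and Tagln. Lower were Hspg2, Timp3, Pdgfrb and Reln.

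B6 HFD controls had 5 of 41 members above B6 NC livers and none below in limma. That count is near the share of all genes that were higher, 9.59%. Column tags (SS N and Tri NC) and processing notes also differ between these 2 groups and cannot be told apart from diet. At an unadjusted p of 0.05, 9 were higher and 3 lower, beside 33.5% of all genes in either direction. Col3a1 stood at 9.27, 8.72 and 8.87 in B6 HFD controls and at 7.90, 7.45 and 7.68 in B6 NC livers, which did not overlap (1.28 ± 0.43, adjusted p = 0.0343). Col4a1 (0.76 ± 0.22), Sparc (0.72 ± 0.21), Timp1 (0.68 ± 0.21) and Vim (0.74 ± 0.25) were the others. Col1a1 stood at 7.30, 6.33 and 6.45 in B6 HFD controls and 5.90, 5.27 and 5.73 in B6 NC livers, also without overlap, but did not pass (1.06 ± 0.44, adjusted p = 0.0903). In the same pair of groups, 3 of 8 macrophage markers were higher and none of 10 stellate markers passed. 

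Each of the 5 calls was lost in 2 to 5 of the 6 fits that left out a single library. Without B6 HFD control 1 all 5 were lost (Col3a1 1.13, Col4a1 0.58, Sparc 0.65, Timp1 0.63, Vim 0.78). Without B6 NC 2 all 5 were lost as well (1.17, 0.59, 0.65, 0.70 and 0.55 in the same order). Without B6 HFD control 3 the calls of Col3a1, Sparc and Vim were lost (1.33, 0.63 and 0.63), and without B6 HFD control 2 that of Timp1 (0.60). Without B6 NC 1 the calls of Col3a1 and Timp1 were lost (1.40 and 0.65), and without B6 NC 3 those of Col3a1, Timp1 and Vim (1.29, 0.69 and 0.71). With IgAkCLM in place of B6 HFD controls no member passed, Col3a1 gave 0.12 and Timp1 turned to -0.02. Fitted on the compared groups alone, 10 members were higher and 1 (Lama5, -0.69 ± 0.16) was lower, beside 21.5% of all genes.

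Among NC livers, no member differed between MupHe and B6 in limma over all groups, beside 0.0486% of all genes. At an unadjusted p of 0.05, 7 were higher in MupHe and none lower, beside 5.25% of all genes. Col4a2 stood at 8.44, 8.46 and 8.72 in MupHe NC and at 7.71, 7.67 and 7.60 in B6 NC livers, without overlap (0.88 ± 0.22, adjusted p = 0.196). With the compared groups fitted alone, Col4a2 (adjusted p = 0.00932) and Col6a3 (0.84 ± 0.13, adjusted p = 0.0301) passed, beside 0.762% of all genes. Des, for the muscle filament desmin, was 7.17 in B6 NC 1 and at most 6.33 in the other 34 libraries.

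A second list of 80 other matrix and matrix-handling genes gives the setting. Of these, 62 were abundant enough to test, and 23 were higher and 9 lower in HCC than in NASH, with a median of 0.26. Over all genes, 25.5% were higher and 22.9% lower. The largest rises were Ddr1 (2.55 ± 0.23), a collagen-binding receptor kinase of epithelial cells, Pcolce (2.08 ± 0.25), which enhances the cutting of procollagen, and Spp1 (1.89 ± 0.41), for osteopontin. The largest falls were Ecm1 (-1.55 ± 0.25), a glycoprotein of the extracellular matrix, Col13a1 (-1.19 ± 0.15), a membrane-spanning collagen, and Col5a3 (-0.65 ± 0.16), the third chain of type V collagen. Against NC, 31 were higher and 10 lower in HCC, beside 31.7% and 30.6% of all genes. Between NASH and HFD control, 1 of the 62 was lower and none higher, near the share of 1.32% of all genes in either direction.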

How the data were processed

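Livers and tumours were profiled by RNA-seq from stranded poly(A) libraries (TruSeq), per the labels' protocols. The authors deposited 1 table of regularized log2 values for 24511 genes in 41 columns. It was analysed as deposited. Reads were handled with STAR and Cuffdiff (high-fat diet samples) or STAR, HOMER and DESeq2 (NC samples) on mm10, per the submitters' processing notes. The sources used here give neither versions nor the rlog program. The rlog step shrinks low values, so changes of low genes are understated. No counts were at hand, so depth and counting intervals are unknown.

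Columns were tied to groups by their names: 35 columns in 11 groups were used, and 6 were not, since their names fit CD8kMup NASH and CD8kCLM HFD control alike. Other labelled samples were not analysed here. NC libraries carry the replicate number of their sample title, which for some differs from the number in the column name. All other libraries carry the number in their column name. Genes with a mean of at least 3 were kept (12337). All 11 groups were fitted together with limma 3.58.1 (R 4.3.3), empirical Bayes with a mean trend, and Benjamini-Hochberg adjustment over all genes tested with a threshold of 0.05. Group means of genotypes were weighted equally. Col4a1 minus Col1a1 was compared by an exact two-sided permutation test. Tested on simulated data for HCC against NASH, with 200 of 12337 genes changed, the fit recovered 94% of those and made 9 false calls. In the real comparison far more genes passed, 25.5% higher and 22.9% lower, so the simulation does not give the error rate there. Members and lists were chosen with earlier results of these data known. Values by library are given for 11 fixed genes and, in HCC against NASH, for the members with the largest and smallest difference in each role group. Others are named because a result turned on them, after their values were seen. From the second list, the 3 largest rises and falls past the threshold are named. Alternatives were other filters, median centring, quantile normalization, robust empirical Bayes, library weights, fits of the compared groups alone, other choices of groups, a replicate block among NC libraries, and each library left out in turn.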

Additional observations from a re-analysis of the deposited data

Results flagged for a closer look

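In groups of 4 tumours, 5 of 84 tests for a library far from the other 3 (Dixon's criterion) found one, and chance alone gives about 1 in 20. Loxl2, a collagen cross-linking enzyme, stood at 6.44 in MupHe HCC 7 and at 5.32 to 5.50 in the other MupHe tumours. Lamc1, for a laminin chain, stood at 9.43 in IgAkMup HCC 8 and at 8.66 to 8.69 in the other IgAkMup tumours, and Hspg2, for perlecan, at 9.48 there and at 8.76 to 8.88 in the others. Fn1, for fibronectin, was lowest in IgAkMup HCC 5, at 13.50 against 14.20 to 14.33. Timp3, for a metalloproteinase inhibitor, was lowest in IgAkMup HCC 7, at 8.83 against 9.91 to 9.99.

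The HCC minus NASH difference was larger in IgAkMup than in MupHe mice for 3 of 41 members, by the interaction test in limma over all genes. Beside this, 4.82% of all genes passed in that direction. With the compared groups fitted alone, none of the 3 passed. The gaps were 0.97 for Col4a2, 1.16 for Hspg2 and 1.09 for Col12a1. IgAkMup NASH and MupHe NASH columns carry different tags (SS N and Tri N) while the columns of both HCC groups carry SS H, and the part of the tags in the gaps was not tested.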

How the results depend on the processing

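Counts below are members called out of 41. With library weights they were, each beside the share of all genes, 10 for NASH against HFD control (19.3%), 15 within Tri N (15.7%), 2 within SS N (5.81%), 1 for the difference between these sets (1.40%), 6 for the difference of the HCC contrasts (12.2%), 13 for NASH against NC (43.1%), 13 for B6 HFD control against B6 NC (33.3%), 2 for MupHe NC against B6 NC (1.22%), 2 for IgAkMup HCC against MupHe HCC (3.04%) and 1 for CD8kMup HCC against MupHe HCC (0.243%). With the compared groups alone they were 6, 10, 1 and, for the difference of the HCC contrasts, 0, then 12, 11, 2, 0 and 0 for the same last 5, and 15 for IgAkMup (26.0%) and 11 for MupHe HCC against NASH (9.81%). Quantile normalization gave 2 for B6 HFD control against B6 NC and 5 for CD8kMup HCC against MupHe HCC, and turned Col18a1 in HCC against NC to 0.087. With IgAkCLM in place of B6 HFD controls the count was 0, and Timp1 turned to -0.018. With MupHe alone NASH against NC gave 0.

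Leaving out single libraries gave 1 to 4 for B6 HFD control against B6 NC, 11 to 18 for MupHe HCC against MupHe NASH, 1 to 6 for the difference of the HCC contrasts, 1 to 10 for IgAkMup and 0 to 7 for CD8kMup HCC against MupHe HCC, and 0 to 1 for NASH against NC. Col4a1 minus Col1a1 ranged over 0.44 to 0.76. Alternatives chosen after seeing the data were leaving out the 3 tumours of low second-component score, which gave 9 for the difference of the HCC contrasts and turned Reln in IgAkMup HCC against IgAkMup NC to 0.23, and fitting the NC groups alone, which gave 5 for MupHe NC against B6 NC. A replicate block among NC libraries gave 4 there; same-numbered libraries did not deviate together (correlations of -0.21 to 0.23 over 18 pairs, 3 above 0.1), so the numbers do not pair them. No paired analysis was possible elsewhere because the columns of the other groups carry no sample numbers from the labels. All-gene shares are not given for the counts in this paragraph or for those after quantile normalization. Causes of these shifts were not tested. Errors of comparisons without tumours were smaller when those groups were fitted alone, as for Lum in NASH against HFD control (SE 0.12, against 0.33 in the fit of all groups). Depth is unknown, and low genes such as Timp1, Lox and Mmp13 are the most shrunk.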
